A study of Caenorhabditis elegans with 2 samples.

Results

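The histone genes of *Caenorhabditis elegans* were examined for regions bound by AHR-1, the aryl hydrocarbon receptor of the worm and a transcription factor of the bHLH-PAS type. They were taken as the protein-coding genes of Ensembl release 115 (assembly WBcel235, ce11) whose symbol starts with his-, which gave 72 of the 19973 coding genes on the chromosomes. A gene counted as having a region when a summit, the point of highest signal in a region, lay from 1500 bp upstream to 500 bp downstream of its 5′ end. The samples were whole hermaphrodite late embryos of strain OP562, collected 3.5 h after bleaching of eggs. The strain carries the allele unc-119(tm4063) on chromosome III and the transgene wgIs562, which encodes AHR-1 with GFP and FLAG at its C terminus, and an anti-GFP antibody was used for the precipitation. There was 1 group with 2 biological replicates and no second condition, so no test between conditions was possible. No source used here gives the promoter of the transgene or the state of the endogenous ahr-1 gene.

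Histones are the proteins around which DNA is wound into nucleosomes. The core histones H2A, H2B, H3 and H4 are made in large amounts while DNA is replicated, from intronless genes that are present in many near-identical copies and often lie in divergent pairs that share 1 spacer as a promoter. Their mRNAs end in a stem-loop bound by the protein CDL-1 rather than in a poly(A) tail. Replacement histones such as H3.3, and linker histones such as HIS-24, come from other genes that mostly have introns. The aryl hydrocarbon receptor binds the letters GCGTG, the core of the xenobiotic response element, together with its partner ARNT, which is AHA-1 in worms.

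By RefSeq product names the 72 genes encode 17 H2A, 16 H2B, 15 H3, 16 H4 and 5 H3.3 proteins, the linker histone HIS-24, and 2 short proteins from his-73 and his-39. The product of his-73 has 46 residues, of which 45 are identical to HIS-9, an H3. That of his-39 has 67 residues, of which 65 are identical to HIS-8, an H2B. The Ensembl annotation gives identical copies a common symbol and has 50 symbols for the 72 genes, so each gene is named here by its RefSeq symbol, matched by WormBase identifier. For 65 genes the annotated 5′ end is the start codon, and distances are then to the start codon, not to a mapped start of transcription.

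The spacers below are printed because they carry the regions discussed, or are close copies of those that do. For the first 2, only the 300 bp of the spacer that end at the start codon of the second gene are shown. The first held a region of the strictest list, and the next is its most similar copy, which had no summit. The his-60/his-59 spacer had a weaker region, and its copy at his-63/his-64 is shown on the minus strand so that both begin at the H4 gene. The last is the stretch upstream of his-37, another H4 gene. All are RefSeq sequence of WBcel235 (ce11), 5′ to 3′, and capitals mark GGGGACAC, CTCCGCC and GCGTG on either strand. The first 2 words were chosen after the spacers had been read.
his-61/his-62 (IV:7486245-7486544, plus strand): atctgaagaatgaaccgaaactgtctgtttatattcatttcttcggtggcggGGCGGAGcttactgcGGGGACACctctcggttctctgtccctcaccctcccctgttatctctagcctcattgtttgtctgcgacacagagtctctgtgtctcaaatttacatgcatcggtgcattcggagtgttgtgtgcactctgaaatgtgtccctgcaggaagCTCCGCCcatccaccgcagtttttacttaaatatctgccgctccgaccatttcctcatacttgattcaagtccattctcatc
his-47/his-48 (IV:11324445-11324744, plus strand): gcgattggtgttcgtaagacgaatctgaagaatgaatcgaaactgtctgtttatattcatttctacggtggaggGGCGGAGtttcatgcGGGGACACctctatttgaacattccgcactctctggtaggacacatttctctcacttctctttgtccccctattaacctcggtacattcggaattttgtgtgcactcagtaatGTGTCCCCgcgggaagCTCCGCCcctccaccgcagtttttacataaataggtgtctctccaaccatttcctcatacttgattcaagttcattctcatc
his-60/his-59 (IV:7487993-7488248, plus strand): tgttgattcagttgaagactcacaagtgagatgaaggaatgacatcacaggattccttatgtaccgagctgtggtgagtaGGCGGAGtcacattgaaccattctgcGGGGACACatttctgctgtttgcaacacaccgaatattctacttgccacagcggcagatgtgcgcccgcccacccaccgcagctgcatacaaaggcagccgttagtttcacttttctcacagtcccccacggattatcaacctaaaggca
his-63/his-64 (IV:11406862-11407115, minus strand): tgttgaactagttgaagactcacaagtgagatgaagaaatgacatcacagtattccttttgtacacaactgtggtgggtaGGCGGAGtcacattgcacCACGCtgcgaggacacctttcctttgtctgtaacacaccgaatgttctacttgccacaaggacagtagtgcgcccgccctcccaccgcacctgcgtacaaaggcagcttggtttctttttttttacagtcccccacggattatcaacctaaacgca
his-37 (V:9546909-9547104, plus strand): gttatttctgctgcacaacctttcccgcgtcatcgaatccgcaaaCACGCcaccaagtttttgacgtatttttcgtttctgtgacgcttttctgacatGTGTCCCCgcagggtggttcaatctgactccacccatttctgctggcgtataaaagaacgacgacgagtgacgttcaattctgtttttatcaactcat

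Of the 72 histone genes, 4 had a region in the list thresholded by IDR, a measure of how alike regions rank in replicates. That was 5.56% (95% Wilson interval 2.18 to 13.4%), against 2.58% of all coding genes. These 4 genes form 2 divergent pairs, each with 1 region between its genes. The IDR list is the top 479 of the 13858 pooled regions by signal. Signal is the authors' value. The IDR and pooled lists share 1 scale, and each replicate list has its own. Signal ran from 69.25 to 1026 in the IDR list (median 98.15) and began at 26.74 in the pooled list.

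The stronger of the 2 IDR regions lay between his-67, an H4 gene, and his-68, an H2A gene. It is the only pair among the histone genes that joins an H4 and an H2A gene. The region, at I 9988740 to 9989183, was intergenic with its summit at 9988962, which is 199 bp upstream of his-67 and 170 bp upstream of his-68. Its pooled signal was 133.9 (rank 122), its signal was 79.71 in replicate 1 (rank 116 of 22949) and 53.64 in replicate 2 (rank 147 of 23313). The region was therefore among the 479 strongest in each replicate. The spacer is 368 bp long, the longest of the histone spacers, and the summit lay 15 bp from its centre in the pooled list and in replicate 1, and 20 bp from it in replicate 2. The window of alg-5, an Argonaute gene, also holds this summit. Within 100 bp of the summit the reference had no GCGTG, 2 copies of GGGGACAC and 1 of CTCCGCC.

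The other IDR region lay between his-61, an H2A gene, and his-62, an H2B gene, at IV 7486214 to 7486657. Its pooled signal was 87.03 (rank 306), with 45.41 in replicate 1 (rank 446) and 42.58 in replicate 2 (rank 243). It too was among the 479 strongest in both. The summit at 7486436 was 219 bp upstream of his-61 and 109 bp upstream of his-62, 55 bp from the centre of a 327 bp spacer. The replicate summits lay 59 and 34 bp from that centre, on the same side. As in the first spacer printed above, there was no GCGTG within 100 bp of the summit or anywhere between the genes. Among all coding genes, 1.77% had a region among the 479 strongest of both replicates, and among histone genes the same 4 did (5.56%).

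**Figure D1:**
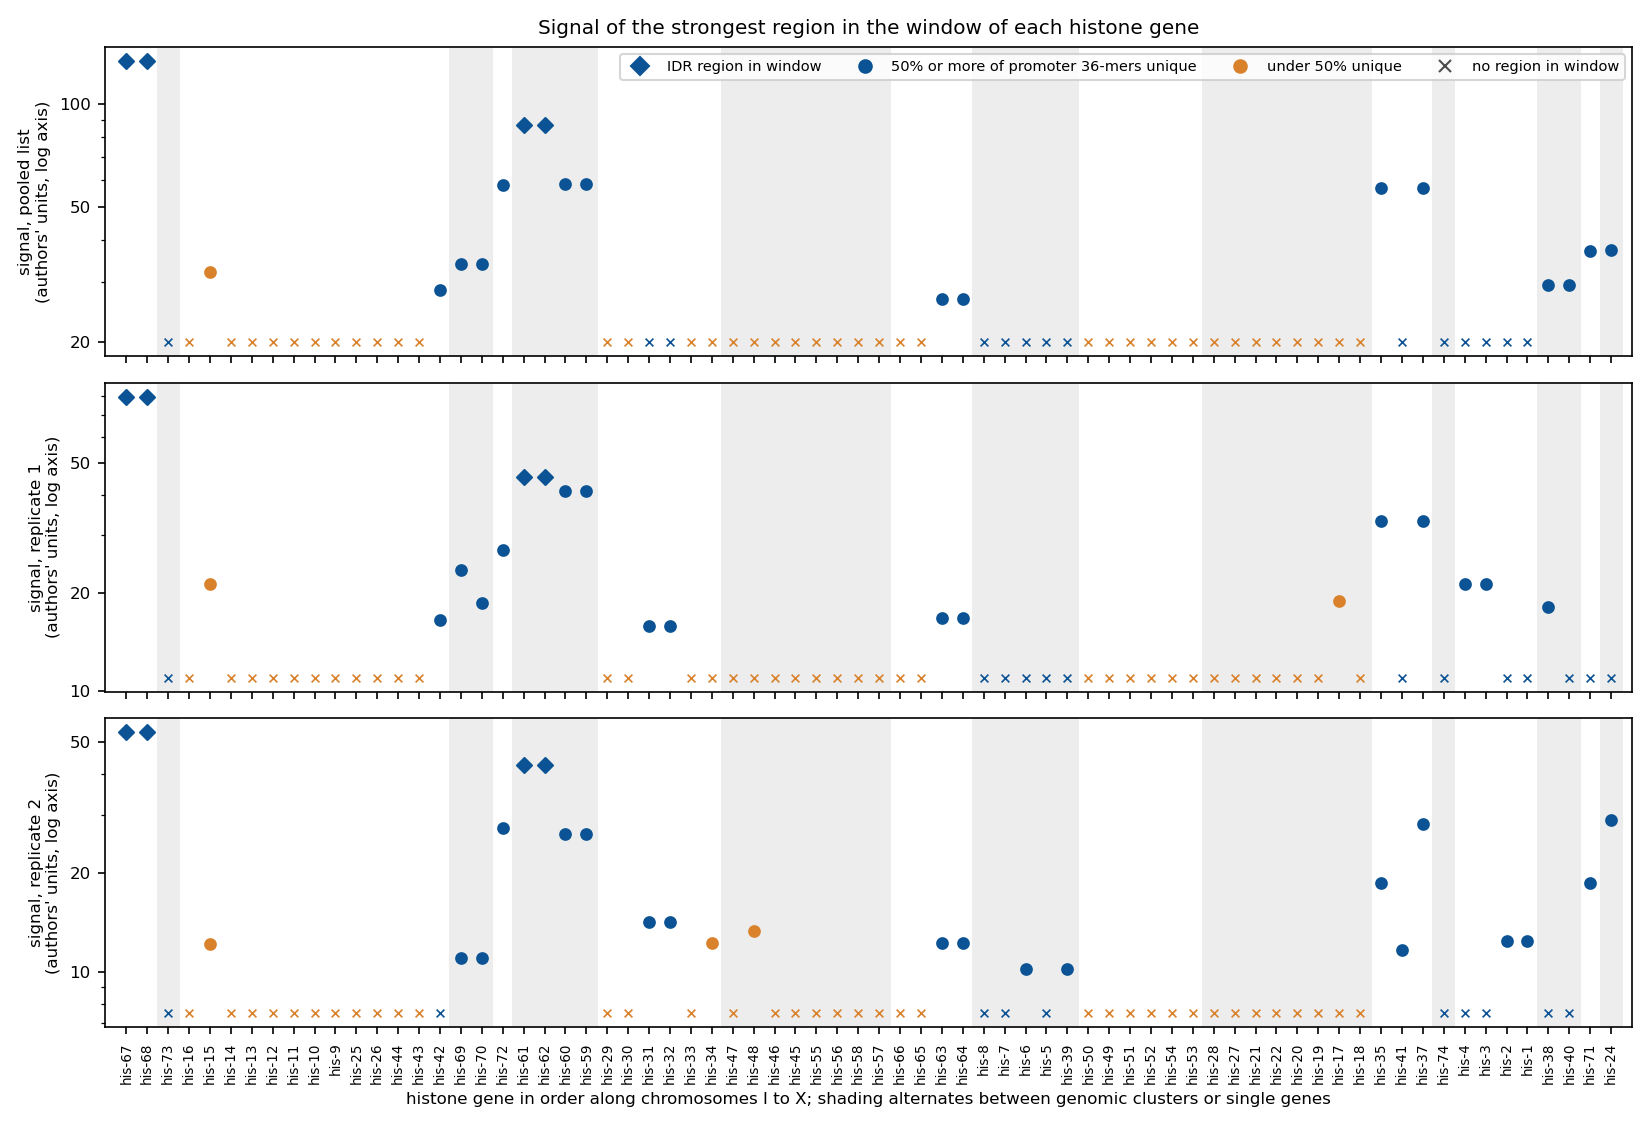
Signal of the strongest region in the window of each of the 72 histone genes, in order along the chromosomes, in the pooled list, replicate 1 and replicate 2 (log axes, each on its own scale; crosses at the foot of a panel mark genes with no region and are not values). The his-67/his-68 and his-61/his-62 pairs are highest in all 3 lists, and orange genes, whose promoters are under 50% unique, are nearly all crosses.

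In the pooled list, 19 of the 72 genes had a region (26.4%, Wilson interval 17.6 to 37.6%), against 29.9% of all coding genes. Replicate 1 gave 21 (29.2%, against 42.6%) and replicate 2 gave 25 (34.7%, against 44.5%). In both replicate lists there were 16 (22.2%, Wilson interval 14.2 to 33.1%, against 26.1%). Here and below, such counts ask for a summit in the window in each list, not for overlapping regions. The background lay inside the counting interval for the pooled list, replicate 2 (24.8 to 46.2%) and both replicates, and above it for replicate 1 (19.9 to 40.5%). All such intervals here take genes as independent, but many histone genes share a region, so none serves as a test against the background. No list gave a region at 41 genes, or 56.9% (45.4 to 67.7%), against 38.8% of all coding genes. On chromosome II these were his-73, his-16, his-14, his-13, his-12, his-11, his-10, his-9, his-25, his-26, his-44 and his-43. On IV they were his-29, his-30, his-33, his-47, his-46, his-45, his-55, his-56, his-58, his-57, his-66 and his-65. On V they were his-8, his-7, his-5, his-50, his-49, his-51, his-52, his-54, his-53, his-28, his-27, his-21, his-22, his-20, his-19, his-18 and his-74, and there was none on I, III or X. Where a histone gene had a pooled region, the median signal of the strongest was 37.24, beside 34.78 at all coding genes with one.

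Windows overlapped heavily, and genes are not separate observations of binding. The 72 windows merge into 22 stretches of 90680 bases in all, and 67 of the genes share part of their window with another histone gene. The 19 genes with a pooled region had 21 distinct regions among them, 8 of which lay in the windows of 2 or more histone genes. By place, 8 of the 21 summits were intergenic, 5 were in the coding sequence of a histone gene, 3 were in its introns and 3 were on small or non-coding RNA genes. The remaining summits were 1 in coding sequence and 1 in a UTR exon of another gene. For 18 of the 21 the nearest coding 5′ end was that of a histone gene. Most of these regions were weak: 2 had a q value, as the authors gave it, of at most 0.05, and 5 of at most 0.1. The other 16 had −log10 q between 0.0179 and 0.342.

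The next regions after the IDR pairs lay at the his-60/his-59 pair, 1 H4 and 1 H3 gene, which sit beside his-61 and his-62 within 2826 bp of chromosome IV. The stronger one, at IV 7487611 to 7488054, had a pooled signal of 58.16 (rank 734), with 41.09 in replicate 1 (rank 573), and its summit lay 159 bp inside the coding sequence of his-60. A second, with a signal of 42.72 (rank 2258), lay in the spacer, 44 bp upstream of his-60 and 213 bp upstream of his-59. The lists placed the summit differently: replicate 1 put it in the coding sequence, 155 bp past the start of his-60, and replicate 2 put its only region there in the spacer (signal 26.35, rank 788). GCGTG was within 100 bp of the summit in the coding sequence and not of that in the spacer, and the spacer printed above holds none.

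On chromosome V, his-35, an H2A gene, and his-37, an H4 gene, shared a pooled region of signal 56.58 (rank 792) at V 9546101 to 9546544. The H2B gene between them, his-41, had a region in replicate 2 alone (rank 16361, signal 11.67). The shared region of rank 792 lay in a UTR exon of C50F4.6, whose 5′ end was the nearest, 231 bp away. Its signal was 33.1 in replicate 1 (rank 1299) and 18.71 in replicate 2 (rank 3105). A separate region at V 9546787 to 9547230 lay 96 bp upstream of his-37, with a pooled signal of 43.23 (rank 2147). Replicate 2 had its summit at the same base (rank 621, signal 28.34). A further pooled region, of rank 3989 and signal 37.6, had its summit in the intron 132 bp past the 5′ end. The only replicate 1 region by this 5′ end had its summit near that one, 118 bp past the 5′ end in coding sequence (rank 11089, signal 19.91). It spanned V 9546998 to 9547447 and so also overlapped the upstream region. The stretch printed above begins 100 bp before the summit of the upstream region and ends at the 5′ end. It holds GCGTG within the longer form TNGCGTG, 1 copy of GGGGACAC and, nearer the gene, the letters TATAAA.

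Of the 5 H3.3 genes 4 had a pooled region, against 29.9% of all coding genes, and none had an IDR region. All 5 have promoters in which every 36-base word is unique in the genome. Of the 8 other histone genes with such promoters 7 had a pooled region, so the count is not particular to H3.3. H3.3 is the form of H3 that is put into chromatin outside replication. The strongest was at his-72, with a pooled signal of 58.03 (rank 739) at III 12369985 to 12370428. That summit lay 1157 bp upstream of his-72 but only 249 bp upstream of rpt-6, a proteasome subunit gene. Its replicate signals were 27.01 (rank 3351) and 27.53 (rank 676). The other 3 regions at his-72 were in its introns, at ranks 4564, 11115 and 12099, the first 2 of them at the snoRNA gene Y49E10.36. At his-71 a region of signal 37.06 (rank 4219) lay 835 bp upstream, with the E-box CACGTG by its summit. It overlapped a region in replicate 2 (signal 18.65, rank 3149) and none in replicate 1. The his-69 and his-70 genes shared a region of signal 33.89 (rank 6102) in the coding sequence of his-70, and his-74 had no region in any list.

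Among core histones, a pooled region was at 3 of 17 H2A genes (17.6%) and 2 of 16 H2B genes (12.5%). It was at 4 of 15 H3 genes (26.7%) and 5 of 16 H4 genes (31.2%), against 29.9% of all coding genes. Promoters under 50% unique, described below, were at 12 of the H2A and 12 of the H2B genes, against 8 of the H3 and 8 of the H4 genes. IDR regions were at 2 H2A genes, 1 H2B gene and 1 H4 gene, and at no H3 gene. These genes share 2 regions, and 2.58% of all coding genes had an IDR region. The linker histone gene his-24 had a region of signal 37.24 (rank 4139) 63 bp upstream, at the ncRNA gene M163.19. A weaker one, of rank 8907 and signal 30.54, lay in its coding sequence, 136 bp past the 5′ end. The replicate 2 region of rank 590 (signal 29.01) had its summit 134 bp past the 5′ end and so lies at the weaker pooled region. Replicate 1 had no region at his-24. Of the short genes, his-73 had no region and his-39 had 1 of rank 22614 in replicate 2 alone (signal 10.23). These counts rest on few and partly shared regions, and no class was set apart from another by a test.

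By position, 67 of the 72 genes fell into 13 clusters in which neighbours lie under 20 kb apart, and 5 stood alone. A pooled region was at 7 of the 13 clusters and an IDR region at 2. In the his-61 to his-59 cluster all 4 genes had pooled regions, the highest share of any cluster of more than 2 genes. The largest cluster, 13 genes from his-16 to his-42 on chromosome II, had pooled regions at 2, his-15 and his-42. Both lay outside the repeated genes: that of his-15 (rank 7506, signal 32.04) in coding sequence of ZK131.11, 1244 bp upstream, and that of his-42 (rank 11351, signal 28.47) on the snRNA gene F08G2.10, 649 bp upstream. Of the 22 genes on chromosome IV 6 had a pooled region, as had 2 of the 27 on V, 2 of the 14 on II and all of the 2 on I, 3 on III and 4 on X. Over all chromosomes, 29.9% of coding genes had one, and no share by chromosome or cluster was computed. Genes on I, III and X partly shared a region, as his-38 and his-40 did. All 40 promoters under 50% unique, described below, were on II, IV and V.

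Clusters without a pooled region included 8 genes from his-47 to his-57 on IV, 6 from his-29 to his-34 on IV, and 8 from his-28 to his-18, 5 from his-8 to his-39 and 4 from his-4 to his-1 on V. Each of these had at least 1 region in a replicate list. The his-31/his-32 pair had a region in both, at rank 21124 in replicate 1 (signal 15.84) and rank 9093 in replicate 2 (signal 14.18). At the his-4/his-3 pair a region was in replicate 1 alone (rank 8757, signal 21.31) and at his-2/his-1 in replicate 2 alone (rank 13795, signal 12.41). The 6 genes from his-50 to his-53 on V were the only cluster with no region in any list at this gap, and no 36-base word of their promoters was unique in the genome. With a gap of 5 kb there were 2 such clusters, the other being his-55 to his-57 on IV, and with 50 kb there was none.

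Histone promoters consisted of repeated sequence more often than other promoters did. A promoter was taken from 250 bp upstream to 50 bp downstream of the 5′ end, and the share of its 36-base words that occur once in the genome was computed. The median was 11.5% at histone genes and 100% at all coding genes. Under 50% were 40 of the 72 histone promoters (55.6%), of which 34 were at 0, against 3% of all coding promoters. By class these were 12 of the H2A, 12 of the H2B, 8 of the H3 and 8 of the H4 genes, and no H3.3 or linker histone gene. The pooled list as a whole held little repeated sequence: 2.5% of the words in its regions were not unique, against 7.93% of the genome. Of its regions 0.657% were under 50% unique, against 6.76% of genome tiles of the same 444 bp. The IDR list held more, with 5.73% of words not unique and 11 of its 479 regions (2.3%) under 50% unique.

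Whether a histone gene had a region largely followed this division of promoters. Of the 40 genes with promoters under 50% unique, 1 had a pooled region (2.5%), none had an IDR region and 36 had no region in any list. The 1 gene was his-15, whose region was the one in ZK131.11, where every word was unique. Other coding genes with such promoters also had few pooled regions, 32 of 559 (5.72%). Of these 559 genes, 2 had an IDR region (0.358%) and 476 had no region in any list, so the lack was not particular to histone genes. Of the 32 histone genes with promoters at least 50% unique, 18 had a pooled region (56.2%), 4 had an IDR region (12.5%) and 15 had a region in both replicates. The shares at other coding genes of that kind were 30.6% for pooled and 2.64% for IDR regions. A region in both replicates was at 5167 of those 19342 genes. Genes that share a region were each counted here, and the 4 genes with an IDR region had 2 regions among them. With each summit given to the nearest coding gene only, 11 of all the histone genes had a pooled region (15.3%, against 23.6% of coding genes). All 11 were among the 32 genes with promoters at least 50% unique. The share at other coding genes of that kind was not computed under this rule. With words of 50 bases the split was the same, 1 of 40 and 18 of 32. No source used here says what was done with reads that match several places, and the part of this in the counts was not tested. A lack of a region at a repeated gene is therefore not a measured absence of AHR-1.

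**Figure D2:**
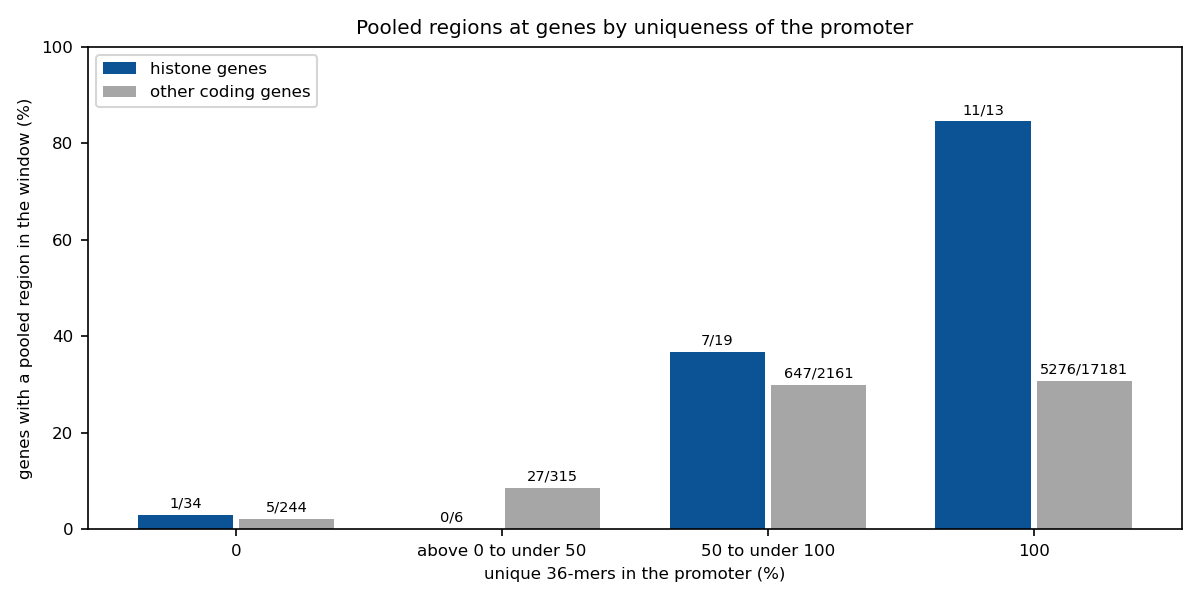
Share of genes with a pooled region in the window (%) by the share of unique 36-base words in the promoter, for histone genes (blue) and other coding genes (grey); the labels give genes with a region over genes in the class. The share was 1 of 34 histone genes with no unique word and 11 of 13 with all words unique, beside 5 of 244 and 5276 of 17181 other genes.

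**Figure D3:**
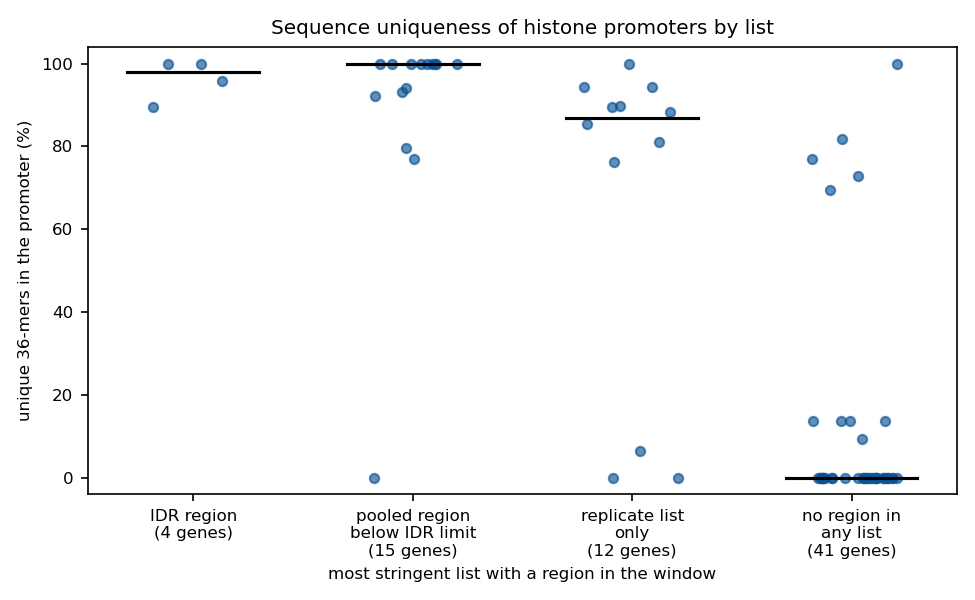
Unique 36-base words in the promoter (%) of each histone gene (points, spread sideways at random), grouped by the most stringent list with a region in its window; the line is the median. The 4 genes with an IDR region lie between 89.4 and 100%, and 36 of the 41 genes with no region lie below 50%.

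The exceptions run both ways. A promoter at least 50% unique came without a pooled region at 14 genes, of which 9 had a region in a replicate list and 5 had none: his-73, his-74, his-8, his-7 and his-5. The his-74 promoter was wholly unique, and those of the others were 69.4 to 81.9% unique. In the other direction, besides his-15, the genes his-34, his-48 and his-17 had promoters under 50% unique with a region in 1 replicate list. Each of those summits lay over 1000 bp upstream of the gene, in unique sequence. The pooled regions at his-42 (48.9%) and at his-63/his-64 (36.2%) were themselves under 50% unique, although the promoters of these genes were not.

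The divergent pairs show where in the shared promoters the summits fell. There were 31 pairs with spacers of 227 to 368 bp (median 258), made up of 16 pairs of H2A and H2B, 14 of H3 and H4, and his-67/his-68. A summit lay inside the spacer at 2 pairs in the IDR list, 3 in the pooled list, 2 in replicate 1 and 5 in replicate 2. For all 1691 divergent pairs of coding genes, spacers held an IDR summit at 5.68%, a pooled one at 20.8%, and one from either replicate at 25.3% each. Spacer lengths were not matched in this comparison. All of the histone spacers with a summit were among the 11 that were at least 50% unique, and none was among the 20 others. Of the 31 spacers, 16 had an identical copy elsewhere among the pairs and 17 had no unique word at all.

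**Figure D4:**
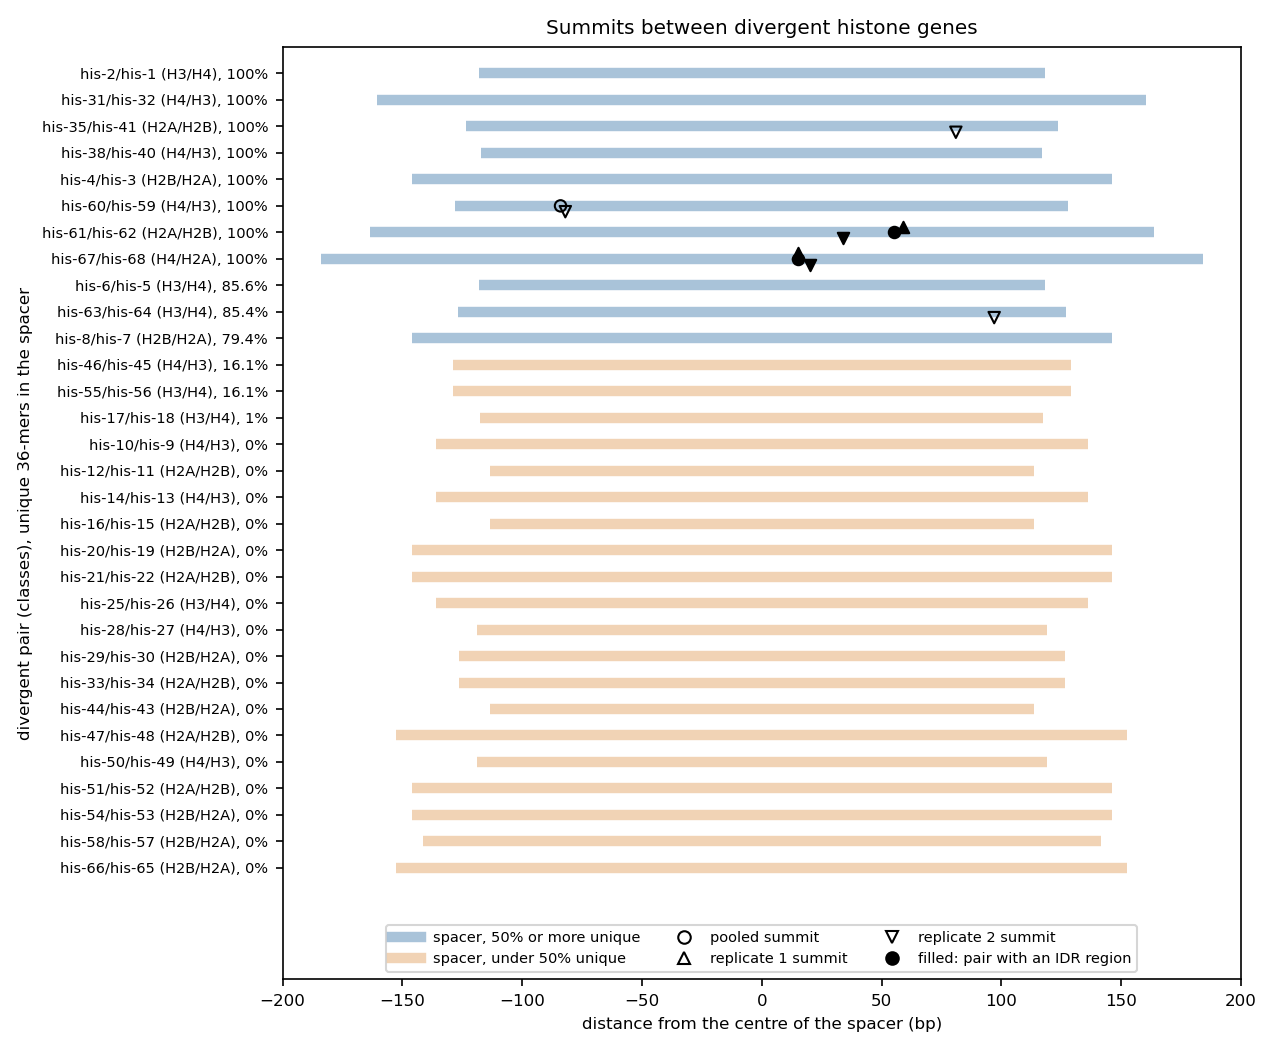
Summits in the spacers of the 31 divergent histone pairs, by distance from the centre of the spacer (bp); bars span start codon to start codon and are coloured by uniqueness, and symbols mark the strongest summit in the pooled list and each replicate. The summits of his-67/his-68 and his-61/his-62 lie within 60 bp of the centre in all 3 lists, and no bar below the 11 most unique holds one.

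Close copies of the spacers with regions had no pooled summit of their own in the spacer. The his-61/his-62 spacer was 79.2% identical (263 of 332 aligned positions) to those of his-47/his-48 and his-66/his-65, which are identical to each other and hold no unique 36-base word. Its identity to the spacer of his-58/his-57 was 72.9%, and to the remaining H2A and H2B spacers 48.1 to 54.6%. The his-60/his-59 spacer was 85.8% identical to that of his-46/his-45, 85.5% to that of his-63/his-64 and 85.4% to that of his-55/his-56. Of these 3 only his-63/his-64 is mostly unique (85.4%). It had the weakest pooled region among the histone genes, of rank 13836 and signal 26.75, in the coding sequence of his-64, and replicate 2 alone had a summit in its spacer (rank 14323, signal 12.25). Unlike the his-60/his-59 spacer it holds 1 GCGTG, on the strand opposite to the one printed.

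GCGTG was no more frequent in histone promoters than elsewhere: 9 of 72 held it on either strand (12.5%), against 19.1% of all coding promoters. Of the 9 genes with it, his-68 alone had an IDR region, and its copy lay more than 100 bp from the summit. The longer form TNGCGTG was in 1 promoter (1.39% against 5.81%). Among the 21 pooled regions at histone genes, 5 had GCGTG within 100 bp of the summit, beside 16.9% of all pooled and 40.3% of all IDR summits. Neither of the 2 IDR regions had it.

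The letters that the histone promoters shared were others. TATAAA, the core of the TATA box, was in 47 of 72 (65.3%) against 38% of all coding promoters. GGGGACAC was in 44 (61.1%) against 0.541%, and CTCCGCC in 44 (61.1%) against 4.73%. Both of the last words were read off these sequences, so their frequency here is a description. In spacers GGGGACAC and CTCCGCC were each in 21 of 31, with and without a region. At the summits of the whole IDR list they were at 0.626% and 8.56%.

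The stem-loop of replication-dependent histone mRNAs divides the genes in a further way, which overlaps the division by promoter uniqueness. A pattern made from the stem-loop of other animals, with CTTTT in its middle, was searched on the coding strand within 500 bp after the stop codon and was found after no histone gene. The worm sequences mostly had CTCTT there. A pattern that leaves the third of these letters open, chosen after the sequences had been read, followed 61 of the 72 genes at 31 to 57 bp from the stop codon, and 62 of all coding genes (0.31%). In 52 genes on chromosomes II, IV, V and X the sequence was GGCCCTCTTTAGGGCC, all capitals because the whole stem-loop is meant. All 4 genes with IDR regions carried the pattern, but so did most histone genes, and these 4 share 2 regions. It was also carried by 12 of the 19 genes with pooled regions. A pooled region was at 29.9% of all coding genes. The 11 genes without it were the 5 H3.3 genes, his-24, his-73, his-47, his-35, his-41 and his-37, and 7 of these had a pooled region. Of genes with promoters at least 50% unique, a pooled region was at 11 of the 22 with the pattern and at 7 of the 10 without it. The share at other coding genes with such promoters was 30.6%. Many of these histone genes share a region, and the difference was not tested.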

How the data were processed

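ChIP-seq region lists for tagged AHR-1 were read on build ce11: 1 list per biological replicate, 1 from both pooled, and 1 thresholded by IDR, per the deposited file descriptions. Per the labels, sonication broke the chromatin. The deposited lists hold the authors' signal value and −log10 q per region; signal was used only within a list. No source used here gives the aligner, caller, IDR threshold, read depth or treatment of reads with several matches. The labels' antibody field names ahr-1 and their description an antibody against GFP, which was followed. The control library and the ce10 lists were not analysed here.

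Windows came from all coding transcripts of Ensembl release 115; a summit counted for every gene whose window held it. Unique words, motifs and spacers (divergent histone 5′ ends under 1000 bp apart) were computed from RefSeq WBcel235 in Python 3.11.15 with numpy 2.4.6; spacers were aligned with Biopython 1.88. Gene assignment and uniqueness were tested on simulated data. Motifs were searched on both strands; GCGTG lies within TNGCGTG. Single regions were matched between lists at 1 bp of overlap. Counts of genes in both replicates, or among the strongest of both, used no overlap. They required a summit of each list in the gene's window, not the same region. Wilson intervals (95%, scipy 1.17.1) cover counting error only and take genes as independent, although many share a window. No test was made. The rule for names took members with an IDR region, the 10 next by pooled signal, the strongest of each cluster, H3.3 genes, his-24 and members with no region; others were named after their values were seen. Members, lists and words were chosen with earlier results of these data known. Figures used matplotlib 3.10.9.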

Additional observations from a re-analysis of the deposited data

How the results depend on the processing

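Of 19 alternative values, 16 stayed within 1.5 times the main one. IDR regions were at 4 histone genes with narrower windows, by overlap, with 1 start per gene, and with the 479 strongest regions of either replicate alone (4 each, the same genes). Counting a summit for the nearest coding gene only gave 2 (his-62 and his-68), as it must where genes share a region, and the strongest 239 regions of the IDR list gave 2 (his-67 and his-68). Pooled regions were at 11 genes under the nearest-gene rule (15.3%, against 23.6% of coding genes), and at 13 to 19 under the others. The share, below that of coding genes in the main count (26.4 against 29.9%), was above it with 500 bp upstream to 200 bp downstream (19.4 against 15.5%) and with the stronger part of the list (18.1 against 17.8%). With the strongest 13858 regions of 1 replicate they were at 15 to 16, of which 12 and 11 were among the 19 of the pooled list. A gap of 5 or 50 kb gave 14 or 12 clusters, and words of 50 bases put 39 windows, not 41, under 50% unique. No paired analysis was possible because there is 1 group. Read depth is unknown.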

Other observations

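Other genes of histone supply and chromatin assembly, in lists made with earlier results known, were read in the same way. Of 11 histone genes named otherwise (linker histones, H2A.Z and centromeric H3), 1 had an IDR region (9.09%, against 2.58% of all coding genes) and 2 a pooled region (18.2%, against 29.9%). The first was hil-7, a linker histone gene, with a signal of 80.37 (rank 363) 129 bp upstream, and 50.67 and 30.28 in replicates 1 and 2. The other was hil-3 (signal 38.41, rank 3693). The H2A.Z gene htz-1 had no pooled region but a region in both replicate lists (ranks 14325 and 12218). The centromeric H3 gene hcp-3 and the linker histone gene hil-2 had regions in replicate 1 alone, and hil-4 in replicate 2 alone.

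Of 14 genes for factors that process histone mRNA or place histones on DNA, 12 had a pooled region and 11 a region in both replicates, beside 29.9 and 26.1% of all coding genes. The 1 IDR region was at chaf-2, a chromatin assembly factor 1 subunit gene, 184 bp upstream, with a signal of 231 (rank 24), and ranks 23 and 27 in the replicates. The region of unc-85, an ASF1 chaperone gene, had a signal of 53.73 (rank 921), and that of cdl-1, the stem-loop binding protein gene, 35.47 (rank 5057). asfl-1 and hmg-3 had none in any list.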
